A study of Homo sapiens with 6 samples.

Results

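A set of 10 genes of transforming growth factor beta (TGF-beta) and bone morphogenetic protein (BMP) signaling was examined in A549 cells that overexpressed IL17D. The genes were taken by name from the deposited table of 58735 genes and comprise the ligands TGFB1, TGFB2 and BMP4, the receptor TGFBR2, the inhibitory SMADs SMAD6 and SMAD7, the response genes ID1, ID2 and ID3, and the TGF-beta-induced gene TGFBI. None of the 10 genes passed an adjusted p of 0.05 in either direction. The largest differences were a 9.47% higher level of ID3 and a SMAD6 level with a log2 fold change of -0.12. Of 66 further genes of the pathway with enough counts for the test, 4 were upregulated (PMEPA1, SMURF2, BMPER and ID4) and 4 were downregulated (INHBB, FN1, LTBP2 and LTBP4) in edgeR's test, which called 0.673% of all tested genes upregulated and 0.908% downregulated. ID4 and LTBP4 did not pass in DESeq2's Wald test (adjusted p = 0.0590 and 0.0599), and without IL17D replicate 3 the counts were 2 and 2. In that fit, 69 genes rose and 76 fell over all genes, against 106 and 143 with all libraries. The further genes of the pathway were chosen with earlier results of these data known, so the shares are not an independent comparison.

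A549 is a human lung adenocarcinoma cell line. The study compared 3 libraries of A549 cells carrying a lentiviral vector that expresses IL17D, a secreted cytokine of the interleukin-17 family, with 3 libraries of A549 cells carrying the same kind of vector without an insert (control), to learn which genes respond to the cytokine. The vector is driven by the human PGK promoter and also encodes GFP, and both groups were grown in the same serum-containing medium, with no other treatment and no deletion named. Whether the replicates of a group are separate transductions or cultures is not said in the methods or labels, so p-values measure only the spread between these libraries, which may be technical. The IL17D open reading frame came from cDNA of another lung cancer cell line, so counts on IL17D do not separate the vector from the endogenous gene.

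TGF-beta and BMP ligands are secreted dimers that join type I and type II serine/threonine kinase receptors, and the activated receptors phosphorylate SMAD proteins, which move into the nucleus with SMAD4. TGF-beta mainly signals through SMAD2 and SMAD3 and BMPs mainly through SMAD1, SMAD5 and SMAD9. SMAD6 and SMAD7 are feedback inhibitors that the pathway itself induces, the ID genes encode inhibitors of basic helix-loop-helix transcription factors and are classic BMP targets, and TGF-beta is a well-known inducer of epithelial-mesenchymal transition in A549 cells.

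Each value is a number of reads counted on a gene, or that number as counts per 1000000 reads (CPM) after scaling between libraries by edgeR's trimmed mean of M-values (TMM). The libraries held 14319398 to 16521021 counts on genes, and no library stood apart in depth. IL17D had 18 to 34 counts in control libraries and 26772 to 32155 counts in IL17D-overexpressing libraries. The epithelial keratins KRT8, KRT18 and KRT7 were abundant, at 7648 ± 130 CPM, 3591 ± 112 CPM and 1650 ± 47.7 CPM in control cells (SD, n = 3), and EPCAM (9 to 21 counts per library) and KRT19 (3 to 11 counts) were near the detection limit. The epithelial cadherin CDH1 fell, from 43.4 ± 2.65 CPM to 35.7 ± 3.32 CPM (log2 fold change -0.28, edgeR adjusted p = 0.0306), and its part in the results was not tested. Of 8 markers of leukocytes, endothelium and fibroblasts, none exceeded 8 counts in any library, and PTPRC and CD3E were at 0 in all of them. COL1A1, the fibroblast marker of the study's single-cell analysis, was not among the 8 and had 274 to 394 counts per library. In RNA from whole cultures, fewer cells with a transcript and less of it per cell cannot be told apart.

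TGFB1, TGFB2 and BMP4 encode the ligands of the set. TGFB1 (ENSG00000105329, chromosome 19, 41301587 to 41353911, minus strand), the most widely expressed TGF-beta ligand, had 129, 128 and 121 CPM in control replicates 1, 2 and 3 and 122, 119 and 123 CPM in IL17D replicates 1, 2 and 3. The lowest control value lay among the IL17D values, so the groups overlapped. Its log2 fold change was -0.056 (standard error 0.044, 95% interval -0.14 to 0.033), and the adjusted p was 0.697 (quasi-likelihood test of edgeR, adjusted by the Benjamini-Hochberg method). Of TGFB1's annotated exon bases, 6.64% are shared with HNRNPUL1 on the opposite strand, and whether the counting used strand is not given in the sources used here.

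TGFB2 (ENSG00000092969, chromosome 1, 218346235 to 218444619, plus strand) encodes a second TGF-beta ligand. It had 43.8, 48.4 and 46.2 CPM in control libraries and 46.1, 48.3 and 48.0 CPM in IL17D libraries, with overlapping groups (log2 fold change 0.043, standard error 0.063, edgeR adjusted p = 0.871). The 3′ transcript TGFB2-OT1, which shares 26.6% of TGFB2's exon bases on the same strand, had no count in any library. How reads lying on both genes were counted is not given in the sources used here. The lack of counts on TGFB2-OT1 therefore does not show whether such reads were left out of TGFB2. BMP4 (ENSG00000125378, chromosome 14, 53949736 to 53958761, minus strand), a ligand of lung branching and of many epithelia, was the least abundant gene of the set. It had 129, 152 and 180 counts in control libraries and 135, 154 and 153 counts in IL17D libraries, and the highest and the lowest CPM both belonged to control libraries. Its log2 fold change was -0.070 with an interval of -0.35 to 0.21 (edgeR adjusted p = 0.912), the widest interval of the 10 genes.

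TGFBR2 (ENSG00000163513, chromosome 3, 30606502 to 30694142, plus strand) encodes the type II receptor that binds TGF-beta and phosphorylates the type I receptor. It had 189, 180 and 188 CPM in control libraries and 187, 192 and 181 CPM in IL17D libraries. The values of both groups were interleaved, and the group means were 186 ± 4.97 CPM and 186 ± 5.33 CPM (SD, n = 3 each). The log2 fold change of 0.0057 had an interval of -0.074 to 0.085 (edgeR adjusted p = 0.983), which is -4.98% to 6.07% around the control level.

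SMAD6 (ENSG00000137834, chromosome 15, 66702228 to 66782848, plus strand) encodes an inhibitory SMAD that acts mainly on BMP signaling. SMAD6 had 237, 247 and 245 CPM in control replicates 1, 2 and 3 and 232, 217 and 225 CPM in IL17D replicates 1, 2 and 3. All 3 IL17D libraries lay under all 3 control libraries. The mean was 243 ± 5.31 CPM in control cells and 225 ± 7.29 CPM in IL17D-overexpressing cells (SD, n = 3 each). The log2 fold change of -0.12 (standard error 0.037, 95% interval -0.19 to -0.041) did not pass after adjustment (unadjusted p = 0.00361, adjusted p = 0.128, edgeR). SMAD7 (ENSG00000101665, chromosome 18, 48919853 to 48952052, minus strand), which encodes the inhibitory SMAD that blocks TGF-beta and BMP receptors alike, had 27.9, 32.2 and 25.5 CPM in control libraries and 30.2, 29.3 and 29.3 CPM in IL17D libraries. The IL17D values all fell inside the range of the control values (log2 fold change 0.054, standard error 0.082, edgeR adjusted p = 0.877). The difference between the changes of SMAD6 and SMAD7 was not tested.

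SMAD proteins bind the short DNA sequence CAGAC, the palindrome GTCTAGAC and, for the SMADs of the BMP branch, the GC-rich sequence GGCGCC. These 3 sequences were searched on both strands in the 250 bases before each RefSeq start of the 10 genes, 15 windows in all (GRCh38.p14), and no match of one can be a match of another. GTCTAGAC was found in 1 of the 15 windows, that of SMAD6, beginning 12 bases before the start, and occurs in 0.182% of 35116 such windows. The last 8 bases of the SMAD6 window lie in exon sequence that GENCODE annotates for SMAD6, and part of the match falls in them. CAGAC was found in 6 of the 15 windows, which belong to 4 genes (TGFB2, BMP4, SMAD7 and ID3), and occurs in 38.0% of all windows. GGCGCC was found in 2 of the 15 windows (BMP4 and TGFBI) and occurs in 16.4% of all windows. A match describes the sequence and is no evidence of binding. The upstream sequences of SMAD6 and ID1 are shown because these genes, with ID3, were the members whose groups did not overlap. Capitals mark the matches, of which ID1 has none, and each sequence runs 5′ to 3′ on the strand of its gene.

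SMAD6 (chr15:66701986-66702235, plus strand): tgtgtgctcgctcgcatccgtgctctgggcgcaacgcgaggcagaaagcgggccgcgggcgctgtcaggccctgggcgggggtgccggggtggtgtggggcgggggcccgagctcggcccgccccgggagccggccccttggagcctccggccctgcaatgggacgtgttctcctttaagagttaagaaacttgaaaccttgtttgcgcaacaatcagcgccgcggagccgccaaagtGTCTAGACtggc
ID1 (chr20:31605039-31605288, plus strand): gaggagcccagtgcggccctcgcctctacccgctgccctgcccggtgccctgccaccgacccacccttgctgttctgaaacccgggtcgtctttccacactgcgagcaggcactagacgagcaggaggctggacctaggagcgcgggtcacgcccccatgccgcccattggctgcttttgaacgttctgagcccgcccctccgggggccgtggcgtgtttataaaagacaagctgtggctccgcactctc

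The SMAD7 window with CAGAC matches 217 and 128 bases before its start lies wholly within exon sequence that GENCODE annotates for SMAD7. Among windows with CAGAC, the RefSeq start matched no GENCODE transcript's first bases for TGFB2, ID3, this SMAD7 window and BMP4 (match at 181 bases). The window of ID3 also lies wholly within exon sequence that GENCODE annotates for that gene. Only the 25 bases around its CAGAC match, which begins 147 bases before the RefSeq start, are therefore given.

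ID3 (chr1:23559634-23559658, minus strand): tcttcggcgtCAGACcagccggagg

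ID1, ID2 and ID3 encode helix-loop-helix proteins without a DNA-binding region, which hold back differentiation by sequestering other helix-loop-helix factors. ID3 (ENSG00000117318, chromosome 1, 23557918 to 23559794, minus strand) had 234, 229 and 219 CPM in control replicates 1, 2 and 3 and 248, 247 and 253 CPM in IL17D replicates 1, 2 and 3. Every IL17D library exceeded every control library. The mean was 227 ± 7.51 CPM in control cells and 249 ± 3.26 CPM in IL17D-overexpressing cells (SD, n = 3 each), a log2 fold change of 0.13 (standard error 0.037, 95% interval 0.056 to 0.21). This was the smallest p of the 10 genes (unadjusted p = 0.00114, rank 275 of 15754 tested genes), and the adjusted p was 0.0652 from edgeR, 0.0510 from DESeq2's Wald test and 0.0570 from limma voom. Without control replicate 1, ID3's adjusted p was 0.0474 in edgeR's test (log2 fold change 0.15). Without control replicates 2 and 3 it was 0.145 and 0.193, and without IL17D replicates 1, 2 and 3 it was 0.174, 0.121 and 0.279. The log2 fold changes of ID3 in the fits without 1 library ran from 0.105 to 0.153.

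ID1 (ENSG00000125968, chromosome 20, 31605283 to 31606515, plus strand) had 443, 439 and 441 CPM in control libraries, the tightest values of the set, and 455, 463 and 448 CPM in IL17D libraries. The groups did not overlap, but the difference was small (log2 fold change 0.047, standard error 0.031, 95% interval -0.017 to 0.11, edgeR adjusted p = 0.638). ID2 (ENSG00000115738, chromosome 2, 8678845 to 8684453, plus strand) had 68.4, 66.6 and 57.6 CPM in control libraries and 67.5, 63.4 and 64.8 CPM in IL17D libraries. Its groups overlapped, with control replicate 3 as the lowest library (log2 fold change 0.023, standard error 0.060, edgeR adjusted p = 0.937). The antisense gene ID2-AS1, with 58 to 102 counts, shares 1.72% of ID2's exon bases.

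TGFBI (ENSG00000120708, chromosome 5, 136028895 to 136063818, plus strand) encodes a secreted matrix protein that binds integrins and is named for its induction by TGF-beta. It had the most counts of the set, at 11561, 9712 and 11505 reads in control replicates 1, 2 and 3 and 10821, 11187 and 9408 reads in IL17D replicates 1, 2 and 3. On the CPM scale, control replicate 2, at 671 CPM, lay under IL17D replicate 2, at 680 CPM, and the other control libraries lay above every IL17D library. The log2 fold change was -0.071 (standard error 0.031, 95% interval -0.13 to -0.0080), with an unadjusted p of 0.0284 and an adjusted p of 0.354 from edgeR.

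**Figure D1:**
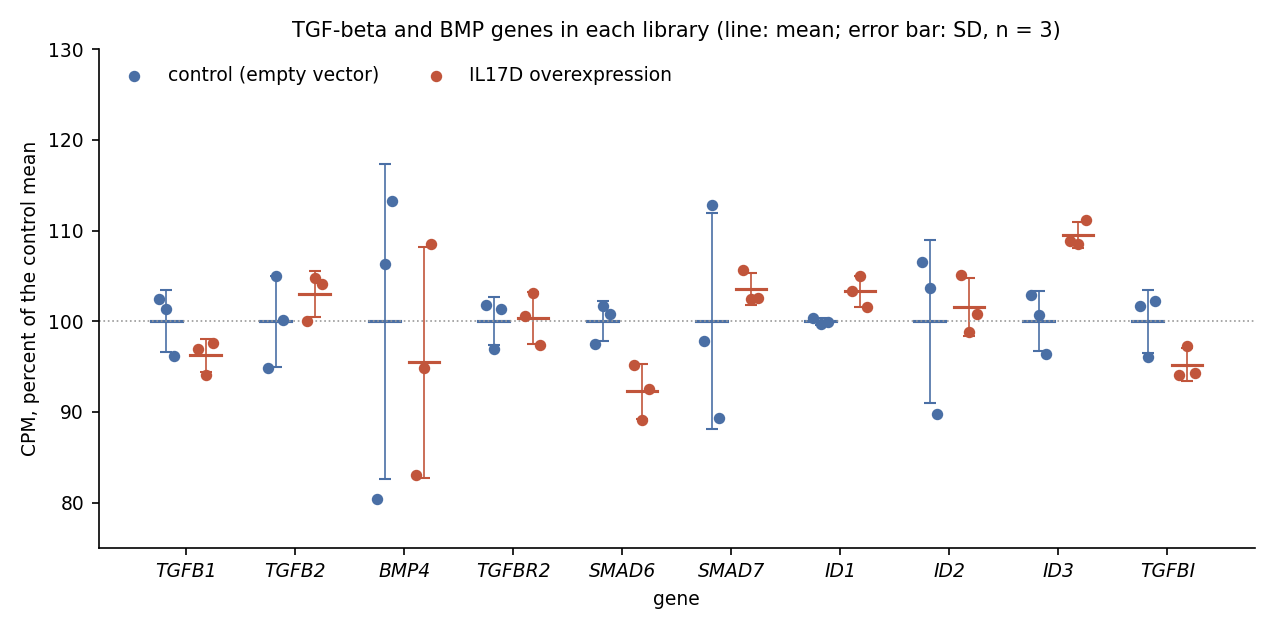
CPM of the 10 genes in each library as a percent of the control mean of the same gene (y axis), with control libraries in blue and IL17D-overexpressing libraries in red, the mean as a line and the SD of 3 libraries as error bars. Only in SMAD6 (89.1% to 95.1% of the control mean in IL17D libraries), ID1 (102% to 105%) and ID3 (108% to 111%) did the libraries of both groups not overlap.

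Across the 10 genes, all of which had enough counts to be tested, edgeR's quasi-likelihood test called 0 upregulated and 0 downregulated at an adjusted p under 0.05, where it called 0.673% and 0.908% of all 15754 tested genes. DESeq2's Wald test and limma voom also called 0 of 10. An unadjusted p under 0.05 was found for 3 genes in edgeR (ID3, SMAD6 and TGFBI), in DESeq2 and in limma voom alike, against 11.6% of all tested genes in edgeR. DESeq2's Wald test had 1211 and limma voom 1829 of the 15754 tested genes under this threshold. No gene of the set passed the thresholds of the study's volcano plot, an unadjusted p under 0.05 with a log2 fold change above 0.2 in size, which 6.0% of all tested genes passed. The groups did not overlap in 3 of the 10 genes (SMAD6, ID1 and ID3), against 15.8% of all tested genes. No test of the 10 genes as a set was made.

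The log2 fold changes of the 10 genes ran from -0.12 (SMAD6) to 0.13 (ID3), with 6 genes higher and 4 lower and a median of 0.014, where the median of all tested genes was -0.00044. The median size of the change was 0.055 in the set and 0.058 in the 9680 tested genes within the set's range of mean CPM. The highest upper bound of the 10 intervals was 0.22 (SMAD7), and the lowest lower bound was -0.35 (BMP4), followed by -0.19 (SMAD6). The coefficient of variation in control libraries ran from 0.369% (ID1) to 17.4% (BMP4). These intervals are per gene and are not adjusted for the number of genes.

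**Figure D2:**
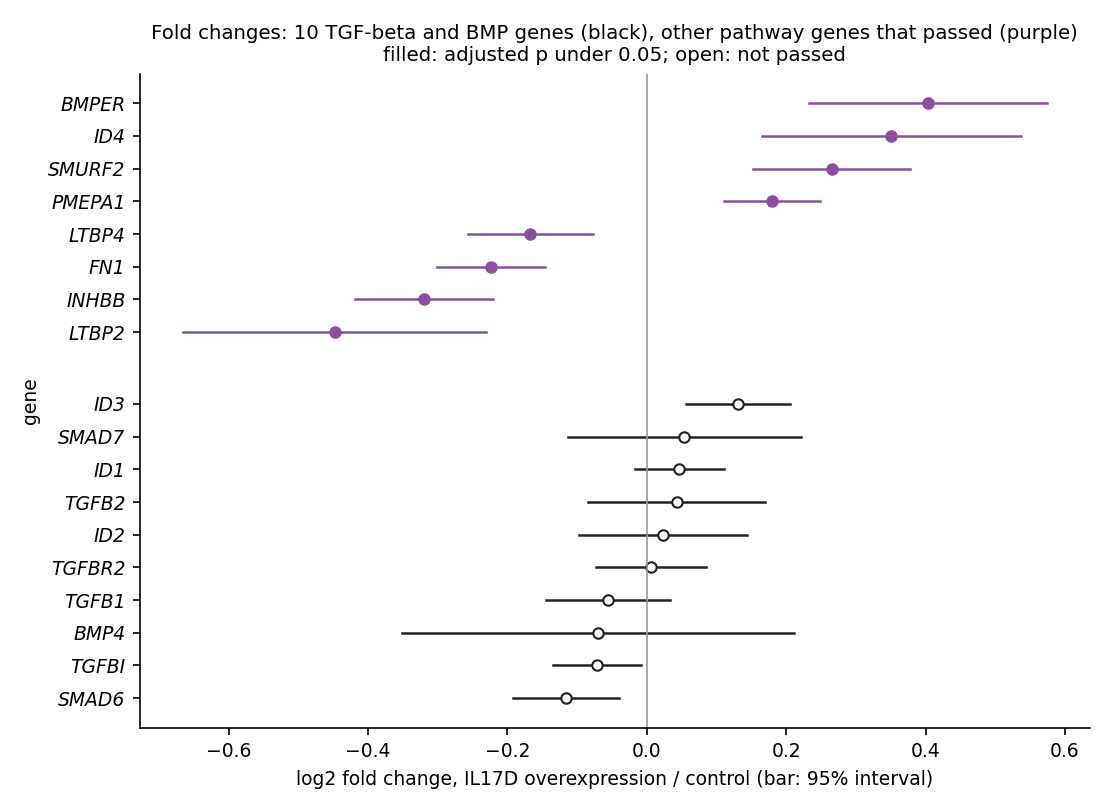
Log2 fold changes of IL17D-overexpressing over control cells (x axis, point) with 95% intervals (bar), for the 10 genes in black and for the other pathway genes with an adjusted p under 0.05 in purple. Open points did not pass, and the intervals of ID3, SMAD6 and TGFBI are the black bars that lie clear of 0.

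The genes were compared with each other on a scale per length, as counts per kilobase of the gene length in the deposited table, scaled to 1000000 per library. On this scale, ID1 was the highest at 1187 ± 3.55 in control cells and 1216 ± 19.4 in IL17D-overexpressing cells (SD, n = 3 each), above 99.5% of the tested genes. ID3 at 420 ± 14.5 and TGFBI at 297 ± 9.09 followed in control cells. The next pairs of neighbors, TGFBR2 (131 ± 2.97) with TGFB1 (129 ± 4.69) and ID2 (96.7 ± 8.88) with SMAD6 (94.4 ± 2.30), overlapped in control libraries. In IL17D libraries, TGFBR2 (127 to 134) lay above TGFB1 (120 to 125), and ID2 (94.4 to 101) lay above SMAD6 (83.1 to 89.5). TGFB2 (29.7 ± 1.60), SMAD7 (18.8 ± 2.33) and BMP4 (10.6 ± 1.85) were the lowest, and no other neighbors in the order overlapped in either group. The length in the table covers all annotated exons of a gene, so genes with long or many transcripts, such as SMAD6 with 8563 bases, are set lower than by a single transcript.

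**Figure D3:**
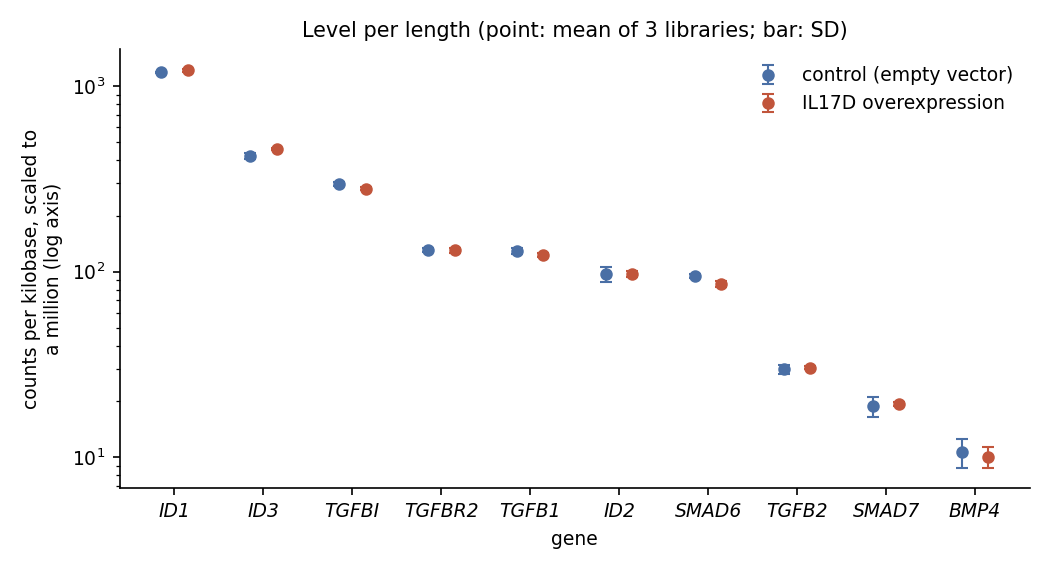
Counts per kilobase scaled to 1000000 (y axis, log scale) for the 10 genes in control (blue) and IL17D-overexpressing (red) libraries, as the mean and SD of 3 libraries. The order runs from ID1, at 1187 in control cells, to BMP4, at 10.6, and is the same in both groups.

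The other genes of the pathway were described from a list of 89 genes in 9 roles. Of these, 66 had enough counts for the test, and the other 23 had at most 14 counts in any library, with 6 of them at 0 in every library. At an adjusted p under 0.05, 4 of the 66 were upregulated and 4 downregulated, which is 6.06% in each direction, beside the 0.673% and 0.908% over all tested genes. The median log2 fold change of the 66 was 0.060, with 42 genes higher and 24 lower. No test of the list as a set was made. The list was chosen with earlier results of these data known, and the shares over all tested genes were not restricted to its range of CPM. The shares therefore do not show whether pathway genes were called more often than other genes of like level. The counts of calls are sensitive to single libraries. Without IL17D replicate 3, 2 genes of the list were upregulated and 2 downregulated. Without control replicate 2 or without IL17D replicate 1, 2 were downregulated. Calls over all genes fell too, from 106 higher and 143 lower to 69 and 76 without IL17D replicate 3. They were 79 and 95 without control replicate 2 and 76 and 79 without IL17D replicate 1.

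Ligands that did not belong to the 10 genes were mostly scarce or did not pass. INHBB (ENSG00000163083, chromosome 2, 120346143 to 120351808), which encodes the beta subunit of activin B, a ligand of the SMAD2 and SMAD3 branch, had 114, 104 and 109 CPM in control replicates 1, 2 and 3 and 90.7, 87.4 and 83.5 CPM in IL17D replicates 1, 2 and 3. All IL17D libraries were lower than all control libraries, and INHBB fell by 19.9% (log2 fold change -0.32, standard error 0.049, adjusted p = 6.3e-05 from edgeR). Of the 6 tested genes of the activin and GDF role, INHBB was the 1 that passed. GDF15, a stress-induced divergent ligand, was the most abundant of them, at 182 ± 10.6 CPM and 194 ± 5.23 CPM (SD, n = 3 each), and did not pass (adjusted p = 0.377, edgeR). None of the 4 tested BMP ligands passed. BMP6 and BMP8B, the more abundant, had log2 fold changes of 0.24 (edgeR adjusted p = 0.284) and -0.093 (edgeR adjusted p = 0.827), and 18.9% of BMP8B's transcript sequence, in stretches of 31 bases, is shared with other genes, BMP8A among them.

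Latent TGF-beta binding proteins hold TGF-beta in the extracellular matrix or belong to the matrix themselves. LTBP2 (ENSG00000119681, chromosome 14, 74498170 to 74612378), a microfibril protein of this family, was counted 251, 242 and 286 times in control libraries and 195, 213 and 168 times in IL17D libraries. It fell by 26.7% (log2 fold change -0.45, standard error 0.11, adjusted p = 0.0177 from edgeR), without overlap of the groups in CPM. LTBP4 (ENSG00000090006, chromosome 19, 40592883 to 40629818), which binds latent TGF-beta 1, fell by 10.9% (edgeR adjusted p = 0.0403), with 181 ± 5.81 CPM in control and 161 ± 11.1 CPM in IL17D-overexpressing cells (SD, n = 3 each). LTBP3, the other abundant member of the role, had a log2 fold change of -0.080 (edgeR adjusted p = 0.478). LTBP2's edgeR adjusted p was 0.0580, 0.0901, 0.0889 and 0.0980 without control replicate 2, control replicate 3, IL17D replicate 1 and IL17D replicate 3, at log2 fold changes of -0.44, -0.40, -0.43 and -0.42. LTBP4's was 0.199, 0.118, 0.211 and 0.338 without control replicate 1, control replicate 2, IL17D replicate 1 and IL17D replicate 3, at log2 fold changes of -0.14, -0.16, -0.15 and -0.13, and 0.0599 in DESeq2's Wald test, at -0.17.

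None of the 10 tested receptors and co-receptors passed, and their log2 fold changes ran from -0.087 to 0.086. BMPR2, the type II BMP receptor, had 77.8 ± 3.28 CPM and 73.3 ± 3.46 CPM, and BMPR1A, a type I BMP receptor, 55.0 ± 2.17 CPM and 54.8 ± 0.824 CPM in control and IL17D-overexpressing cells (SD, n = 3 each). BMPR1A shares 19.7% of its 31-base stretches with other genes, its pseudogenes among them. None of the 6 signal-transducing SMADs passed either. SMAD3, the mediator of TGF-beta signals, was the most abundant, with 646, 652 and 652 CPM in control libraries and 620, 631 and 637 CPM in IL17D libraries, a small difference without overlap (log2 fold change -0.047, edgeR adjusted p = 0.592). SMAD2 had 185 ± 5.14 CPM and 193 ± 4.61 CPM (SD, n = 3 each; edgeR adjusted p = 0.636).

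Of the 8 tested intracellular inhibitors, PMEPA1 and SMURF2 passed, and both rose. PMEPA1 (ENSG00000124225, chromosome 20, 57648392 to 57711536), a membrane protein that is induced by TGF-beta and sequesters SMAD2 and SMAD3, had 375, 366 and 352 CPM in control replicates 1, 2 and 3 and 400, 417 and 423 CPM in IL17D replicates 1, 2 and 3. The groups did not overlap, and PMEPA1 rose by 13.3% (log2 fold change 0.18, standard error 0.034, adjusted p = 0.0017 from edgeR). The antisense gene NKILA, with 112 to 159 counts per library, shares 6.10% of PMEPA1's exon bases. SMURF2 (ENSG00000108854, chromosome 17, 64542295 to 64662068), a ubiquitin ligase that acts on SMADs and, with SMAD7, on TGF-beta receptors, had 56.6, 55.9 and 56.2 CPM in control libraries and 66.6, 65.1 and 71.3 CPM in IL17D libraries. SMURF2 rose by 20.2% (log2 fold change 0.27, standard error 0.056, adjusted p = 0.0050 from edgeR), and without IL17D replicate 3 its adjusted p was 0.0829 at a log2 fold change of 0.23. The 6 other tested intracellular inhibitors did not pass, among them TGIF1, a SMAD corepressor, at 117 ± 6.30 CPM and 116 ± 2.42 CPM (SD, n = 3 each).

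Of the 8 tested extracellular antagonists, BMPER passed. BMPER (ENSG00000164619, chromosome 7, 33904308 to 34156356), a secreted protein that binds BMPs, was counted 323, 292 and 358 times in control replicates 1, 2 and 3 and 454, 460 and 383 times in IL17D replicates 1, 2 and 3. It rose by 32.2%, and its mean was 20.8 ± 1.30 CPM in control cells against 27.5 ± 0.579 CPM in IL17D-overexpressing cells (SD, n = 3 each, log2 fold change 0.40, standard error 0.084, adjusted p = 0.0047 from edgeR), and the groups did not overlap in CPM. The most abundant antagonists, FSTL3, which binds activins, and FSTL1, had log2 fold changes of 0.053 (edgeR adjusted p = 0.687) and -0.034 (edgeR adjusted p = 0.877).

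Among 11 tested TGF-beta target genes, 1 was downregulated and none upregulated in edgeR's test. Most of the 11 had a log2 fold change above 0, with a median of 0.097 and a range of -0.22 to 0.23. FN1 (ENSG00000115414, chromosome 2, 215360440 to 215436172), which encodes fibronectin, had 234, 255 and 253 CPM in control libraries and 210, 213 and 213 CPM in IL17D libraries. FN1 fell by 14.3% (log2 fold change -0.22, standard error 0.038, adjusted p = 0.0004 from edgeR) without overlap of the groups.

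Among 7 tested BMP target genes besides the set, ID4 passed. ID4 (ENSG00000172201, chromosome 6, 19837386 to 19840684), the fourth gene of the ID family, had 280, 268 and 293 counts in control libraries and 352, 405 and 325 counts in IL17D libraries. ID4 rose by 27.6% (log2 fold change 0.35, standard error 0.091, adjusted p = 0.0373 from edgeR), and its groups did not overlap in CPM. All 4 ID genes had a log2 fold change above 0, at 0.047, 0.023, 0.13 and 0.35 for ID1, ID2, ID3 and ID4, as had 49.9% of all tested genes, and 1 of the 4 passed. ID2's value turned to -0.049 without control replicate 3 and to -0.0019 without IL17D replicate 1. ID4's call was lost in DESeq2's Wald test (adjusted p = 0.0590, log2 fold change 0.35) and without any 1 library other than IL17D replicate 1, with edgeR adjusted p-values of 0.167, 0.0739, 0.0626, 0.207 and 0.107 without control replicates 1, 2 and 3 and IL17D replicates 2 and 3. The log2 fold changes in these fits were 0.32, 0.37, 0.36, 0.30 and 0.36. HES1, the other abundant gene of the role, was at 19.6 ± 0.897 CPM and 21.1 ± 0.144 CPM (SD, n = 3 each; edgeR adjusted p = 0.736).

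**Figure D4:**
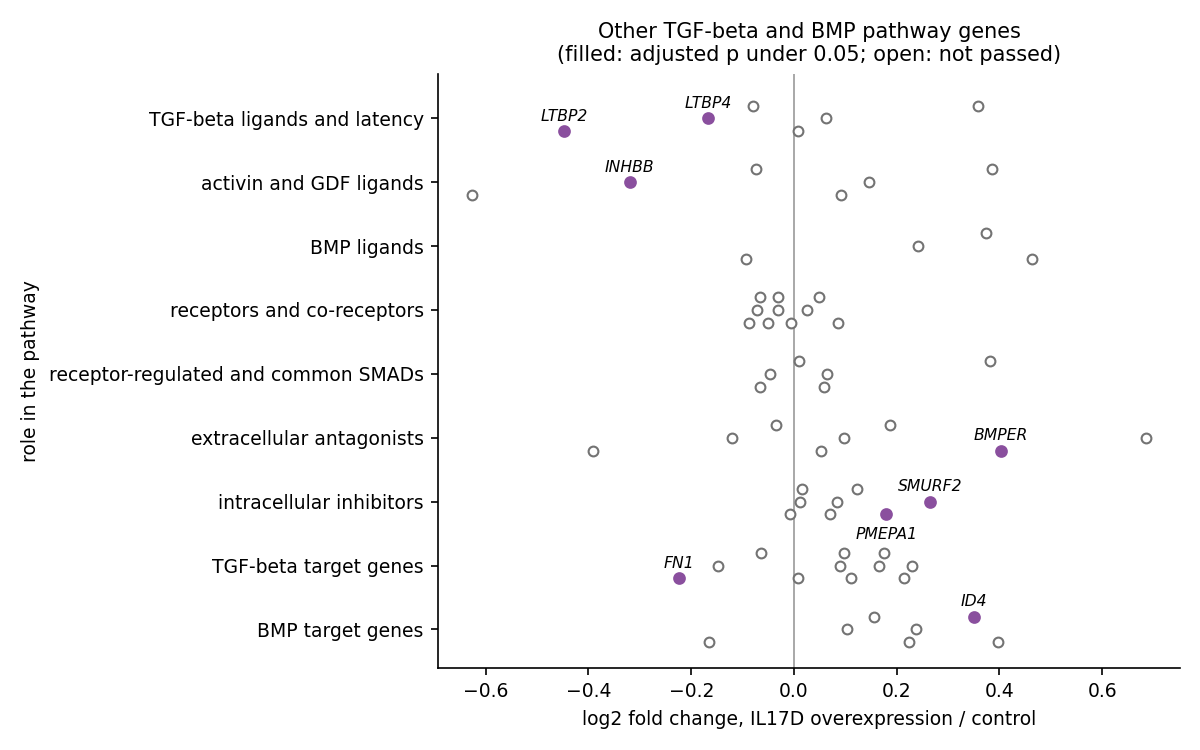
Log2 fold changes of the 66 tested genes of the wider list (x axis), 1 point per gene, arranged by role (y axis), with genes at an adjusted p under 0.05 filled and named. Receptors lie between -0.087 and 0.086, and the filled points to the right of 0 are BMPER, SMURF2, PMEPA1 and ID4.

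The genes named for a pattern over the 6 libraries like that of ID3, the gene of the set with the smallest p, were EEF1D (Pearson's r = 0.995 on log2 CPM) and MOB4 (r = 0.988), out of 9741 tested genes with a mean of at least 10 CPM. EEF1D encodes a translation elongation factor subunit. With 6 libraries, 165 of these genes had an r of at least 0.9. Within the set, ID3's pattern had an r of 0.722 with ID1, 0.493 with ID2, 0.447 with SMAD7, 0.281 with TGFB2, -0.053 with TGFBR2, -0.292 with TGFB1, -0.751 with TGFBI and -0.848 with SMAD6. BMP4, with a mean under 10 CPM, was left out. These values share their libraries and the difference between the groups and are given as a description.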

How the data were processed

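The data were 3 RNA-seq libraries of control and 3 of IL17D-overexpressing A549 cells. The authors deposited unnormalized counts of reads per gene, with coordinates of GENCODE release 29 on GRCh38 for 58724 of 58735 genes. The submitters' processing notes name Bowtie2 and hg38. The counting tool and its strand setting are not given in the sources used here. No per-sample column was left out. Groups came from the sample titles.

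Genes were kept by edgeR's filterByExpr, scaled by TMM and compared with the quasi-likelihood test without covariates (R 4.3.3, edgeR 4.0.16). P-values are two-sided and adjusted by Benjamini-Hochberg over 15754 tested genes. Standard errors and 95% intervals came from the fitted weights and the moderated quasi-dispersion. Alternatives used limma 3.58.1 (voom), DESeq2 1.42.0, other scaling and filters, a block for the replicate number, and fits with each library left out in turn. The steps were tested on simulated data. Tables and figures were made with Python 3.11.15, pandas 2.3.3, numpy 2.4.6 and matplotlib 3.10.9. The limit set by a count of 0, taken as 3 counts, was 0.182 to 0.210 CPM and covers counting error only.

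The 10 genes and the wider list were chosen with earlier results of these data known. Besides the 10 genes and IL17D, the rule names each gene of the wider list with an adjusted p under 0.05, the 2 genes of highest mean CPM in each role, and the 3 genes most like the member with the smallest p. Some genes that the rule names are not reported here. Promoter sequences were matched by symbol for all 10 genes. Sequence shared between genes was measured with stretches of 31 bases of GENCODE transcripts.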

Additional observations from a re-analysis of the deposited data

How the results depend on the processing

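Under 14 alternatives, 132 of 140 log2 fold changes of the 10 genes kept their direction and their side of an adjusted p of 0.05. None of the 10 genes passed in the main fit, so the side kept is that of not passing. When single libraries were left out, the number of these genes called higher ran from 0 to 1, the 1 being ID3 without control replicate 1, and the number called lower stayed at 0. In these fits, the pathway genes called higher ran from 2 to 4 and those called lower from 2 to 4. Over all genes, those called higher ran from 69 to 129 and those called lower from 76 to 138. With all libraries, DESeq2's Wald test called 4 pathway genes higher and 3 lower, and limma voom called 5 and 4. Over all tested genes, DESeq2's Wald test called 85 higher and 111 lower, and limma voom 99 and 131. In both tools, the pathway genes called higher included a gene that edgeR's test did not call. The direction of 6 genes near 0 turned when a library was left out, with log2 fold changes from -0.21 to 0.034 for BMP4, -0.016 to 0.028 for TGFBR2, -0.021 to 0.15 for SMAD7, -0.049 to 0.074 for ID2, -0.049 to 0.024 for TGIF1 and -0.037 to 0.015 for BMPR1A. The cause was not tested. With the replicate number as a block (replicate block), 0 of the 10 genes were called, with 4 pathway genes higher and 4 lower, as without it, and over all genes 115 rose and 157 fell, against 106 and 143. The deviations of same-numbered libraries from their group means had r values of 0.052, -0.064 and -0.031, and those of differently numbered libraries ran from -0.106 to 0.136. Whether same-numbered libraries were handled together is not said in the methods or labels, and these values cannot decide it. DESeq2 size factors, total counts, no filter, at least 10 counts in every library and leaving IL17D out of the table, a choice made after seeing the data, gave 0 calls among the 10 genes. BMP4 had the fewest counts of the 10 genes, with 129 to 180 per library, and the widest interval.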
